A study of Cucumis sativus with 6 samples.

Results

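Pedicle-enriched genes are described here: 73 of the 15720 genes in the authors' expression table of cucumber phloem, whose transcripts were several times more abundant in pedicle phloem than in stalk and fruit phloem while stalk and fruit lay close together. Members were chosen from the measured values. Each organ's mean of its 2 libraries was raised by 5, and a gene was taken when its pedicle value was at least 4 times both the stalk and the fruit value. Stalk and fruit also had to lie within 2-fold of each other, both pedicle libraries had to lie above all 4 others, and the pedicle mean had to reach 100 TPTM. TPTM is the authors' score for a gene, read here as its value per 10000000 in a library because every column sums to just under that total. The contrasts of pedicle with stalk and with fruit therefore chose these genes, and their values are given as a description without a test.

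The libraries came from phloem that was cut out of fixed, paraffin-embedded sections by laser microdissection. All plants were of the inbred line 9930 of Cucumis sativus, grown on in a greenhouse without any treatment, and young fruits were harvested with their pedicles 3 days after anthesis (flower opening). Pedicle, stalk and fruit phloem gave 2 libraries each, 6 in all; those of an organ are biological replicates per the design text of the series. RNA from the dissected cells was amplified in successive rounds before library construction, and neither the border between pedicle and stalk nor the number of plants per library is stated in the labels.

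Phloem is the living tissue that carries sugars, amino acids, RNAs and proteins over long distances in a plant. Its conducting sieve elements keep few organelles and depend on the companion cells beside them, which make most of the transcripts and proteins found in the tissue. In cucurbits the phloem is known for its abundant structural phloem proteins and for the raffinose-family sugars it transports, and the pedicle is the passage through which a growing fruit is supplied.

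The table identifies genes by locus identifier alone. None of its identifiers (0 matched) occurred in the RefSeq table of 23999 cucumber genes (assembly Cucumber_9930_V3), so products are not stated, pathways cannot be assigned, and the marker lists for phloem, xylem, photosynthetic and epidermal cells could not be applied. Whether the libraries carry phloem markers was thus not checked. In a bulk measurement, more cells of a type and more RNA per cell cannot be told apart, and a higher score for a gene in pedicle can be either. Column totals were 9991842 to 9995581, the median gene stood at 128 to 158 TPTM, and 89 to 510 genes were listed at 0 in a library. How many reads lie behind a score is not recorded, so no counting interval is attached to single values.

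The 73 genes took a large share of pedicle expression. They held 9.34% and 9.02% of all TPTM in the pedicle libraries, against 0.911% and 0.653% in stalk and 0.891% and 0.445% in fruit. The means were 9.18% ± 0.22 in pedicle, 0.782% ± 0.18 in stalk and 0.668% ± 0.32 in fruit (SD, n = 2 each). Nearly all of this came from a handful of genes. The 6 most abundant members held 8.45% ± 0.23 of pedicle expression and the other 67 held 0.735% ± 0.012. Those 67 accounted for 0.0827% ± 0.0081 of stalk and 0.0760% ± 0.0015 of fruit expression (SD, n = 2 each).

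**Figure D1:**
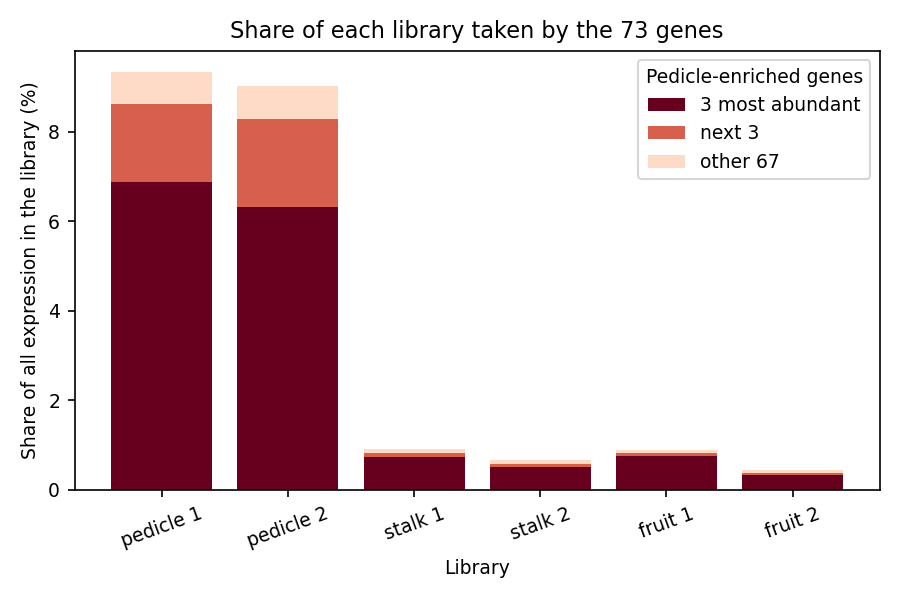
Share of all expression (%, vertical axis) taken by the 73 pedicle-enriched genes in each of the 6 libraries, stacked as the 3 most abundant genes, the next 3 and the other 67. The pedicle bars reach 9.34% and 9.02%, and no stalk or fruit bar exceeds 0.911%.

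Csa7G056500 was the most abundant member, with 312608 and 293673 TPTM in the pedicle libraries, 15815 and 13464 TPTM in stalk and 13458 and 8025 TPTM in fruit. By score, which is not corrected for gene length, it ranked 2 among all genes in both pedicle libraries, but 59 and 78 in stalk and 67 and 145 in fruit. Its log2(TPTM + 5) was higher in pedicle than in stalk by 4.38 ± 0.29 and than in fruit by 4.86 ± 0.29 (SE of the limma fit).

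Csa7G067350 had 195445 and 173174 TPTM in pedicle, 37036 and 25366 TPTM in stalk and 35428 and 14658 TPTM in fruit. Csa7G067370 had 180033 and 163685 TPTM in pedicle, 20156 and 12578 TPTM in stalk and 25237 and 10712 TPTM in fruit. They ranked 3 and 4 in both pedicle libraries and stayed among the 100 most abundant genes of every stalk and fruit library, so these transcripts were plentiful in all 3 organs. Their pedicle means were 5.91 and 9.56 times the higher of the other organs' means (each plus 5), a measure called fold from here on. Quantile normalisation lowered the fold of the 3 leading genes: on the log2 scale it was 3.77 against 4.37 as deposited for Csa7G056500, 1.96 against 2.56 for Csa7G067350 and 2.49 against 3.26 for Csa7G067370. At 1.96, Csa7G067350 falls below the 4-fold limit.

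Csa1G710160 had 74720 and 82692 TPTM in pedicle, 2875 and 3646 TPTM in stalk and 3737 and 1326 TPTM in fruit, a fold of 24.1. Csa1G542510 had 51091 and 63371 TPTM in pedicle, 4068 and 2269 TPTM in stalk and 2368 and 1942 TPTM in fruit, a fold of 18.0. Both ranked within the first 13 genes of each pedicle library and at 390 or further down in stalk and fruit, so these transcripts fell out of the leading group there.

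Csa7G222870 had 46753 and 50976 TPTM in pedicle, 2253 and 225 TPTM in stalk and 1125 and 261 TPTM in fruit. The pedicle libraries nearly coincided, whereas the higher stalk library was 10.0 times the lower one and the higher fruit library 4.31 times the lower one. Its fold of 39.3, or 5.30 on the log2 scale, was 6.13 on that scale without stalk replicate 1 and 4.44 without stalk replicate 2.

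**Figure D2:**
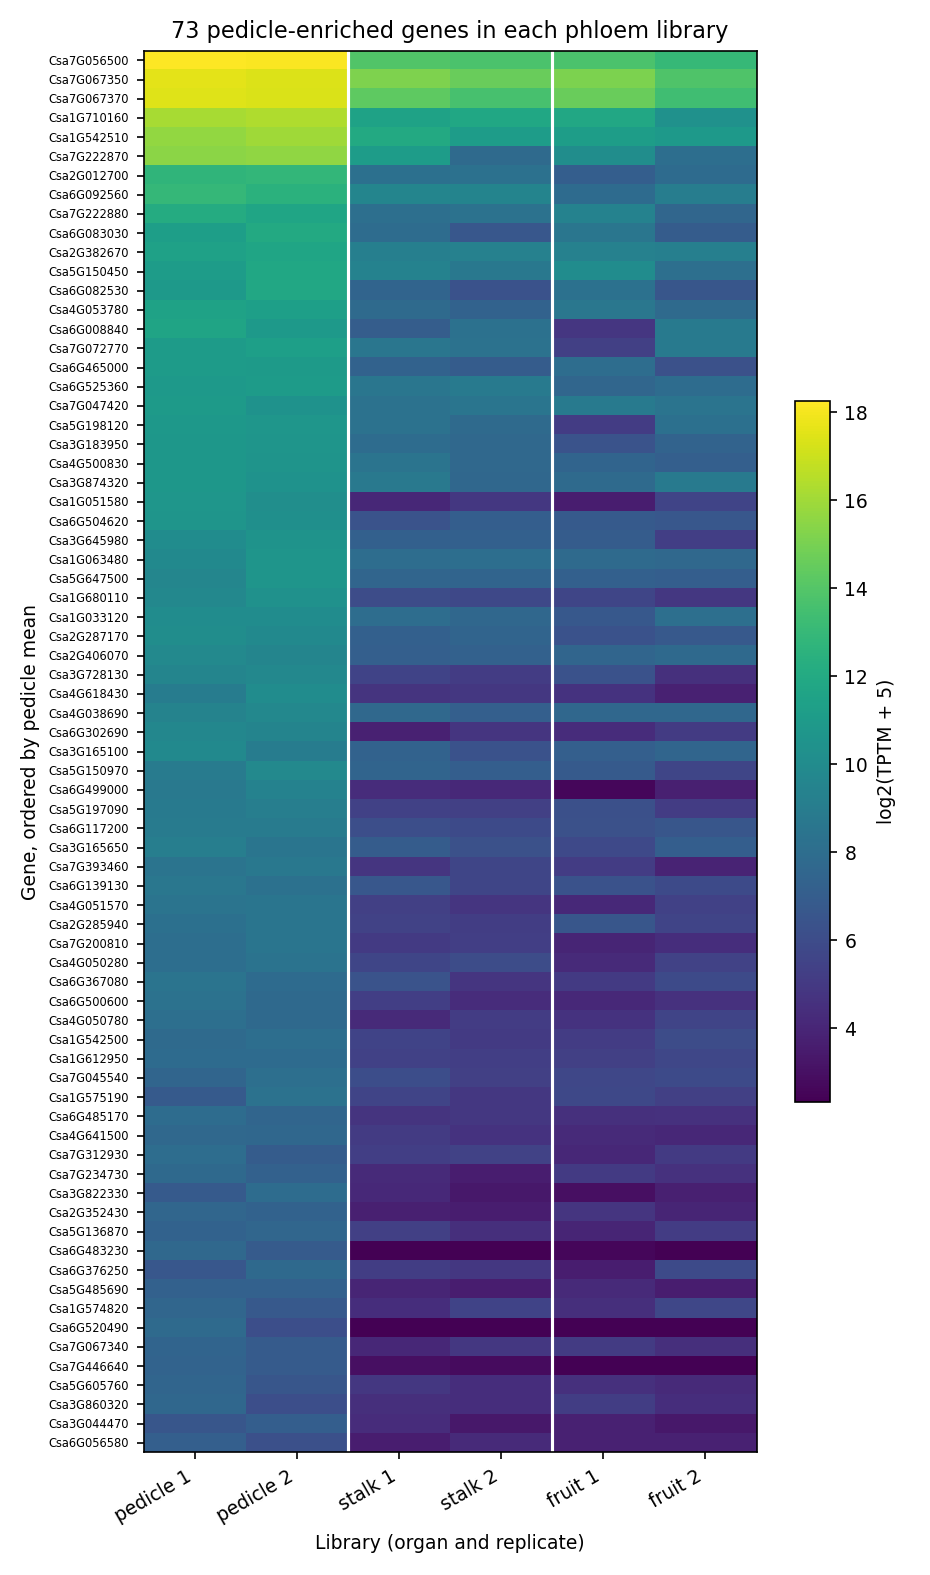
Score of each of the 73 genes (rows, ordered by pedicle mean) in each library (columns), as log2(TPTM + 5) by colour. The 6 uppermost genes, from Csa7G056500 to Csa7G222870, stand clear of the rest in pedicle, and single fruit libraries stand apart within several rows.

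Pedicle means of the 73 genes ran from 101.5 to 303140.5 TPTM with a median of 723. Stalk means ran from 0 to 31201 TPTM with a median of 54, and fruit means from 0 to 25043 TPTM with a median of 65. In pedicle, 6 members had a mean of 10000 TPTM or more, 25 had 1000 to 10000 and 42 had 100 to 1000. Of all genes in the table, 101 reached a pedicle mean of 10000 TPTM. The 6 members above that level included ranks 2 to 5 of both pedicle libraries.

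Members covered a wide range of levels outside pedicle. The higher of the stalk and fruit means was under 10 TPTM in 4 members, 10 to 100 TPTM in 36, 100 to 1000 TPTM in 27 and 1000 TPTM or more in 6. Of all 15720 genes in the table, those classes held 339, 5495, 7766 and 2120, and the lowest class held 5.48% of members. Members reached 10 TPTM in 67 and 65 cases in the stalk libraries and in 64 cases in each fruit library. Of all genes, 14660 and 14574 did so in stalk and 14664 and 14856 in fruit. Members above the library's median gene numbered 30 and 28 in stalk and 21 and 24 in fruit. Across the 73 genes the pedicle mean and the higher of the other means rose together (Spearman rho 0.90), whereas pedicle mean and fold were only weakly related (rho 0.22). These correlations are across genes chosen by a fold limit, which ties the levels to each other, and are given as a description.

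The fold had a median of 6.93 and a maximum of 46.9, and it was at least 5 in 52 members, at least 10 in 22 and at least 20 in 10. Csa1G051580 had the largest, 46.9, with 1652 and 1151 TPTM in pedicle, 12 and 25 TPTM in stalk and 7 and 43 TPTM in fruit. Csa6G302690 had 835 and 718 TPTM in pedicle, 9 and 23 TPTM in stalk and 15 and 29 TPTM in fruit, a fold of 28.9. In both genes every pedicle library was far above every other library, although the 2 fruit libraries of Csa1G051580 differed 6.14-fold. Its fold, 5.55 on the log2 scale, was 4.87 without fruit replicate 1, below that of Csa7G222870 at 5.30. With 1 added in place of 5 it was 5.75, below the 6.76 of Csa6G483230, so its rank depended on the setting. With 20 added, the fold of Csa6G302690 was 4.25 on the log2 scale, against 4.86 with 5.

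Csa6G499000 had 428 and 672 TPTM in pedicle, 15 and 13 TPTM in stalk and 1 and 8 TPTM in fruit, a fold of 29.2. It sat exactly on the stalk to fruit limit, with a ratio of 2.00. At values this low the added 5 weighs heavily, and the fold on the log2 scale was 4.07 with 20 added instead.

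Csa6G520490 was the only member listed at 0 in all 4 stalk and fruit libraries. It had 219 and 65 TPTM in pedicle, and no fold is given against organs at 0. Csa6G483230 had 207 and 116 TPTM in pedicle, was listed at 0 in both stalk libraries, and had 1 and 0 TPTM in fruit. Csa7G446640, chosen after its values were seen as the other member at 0 in both libraries of an organ, had 163 and 113 TPTM in pedicle, 3 and 2 TPTM in stalk and 0 and 0 TPTM in fruit. The 3 genes share a low pedicle level, and a score of 0 here can also be a transcript too rare for the library's depth.

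**Figure D3:**
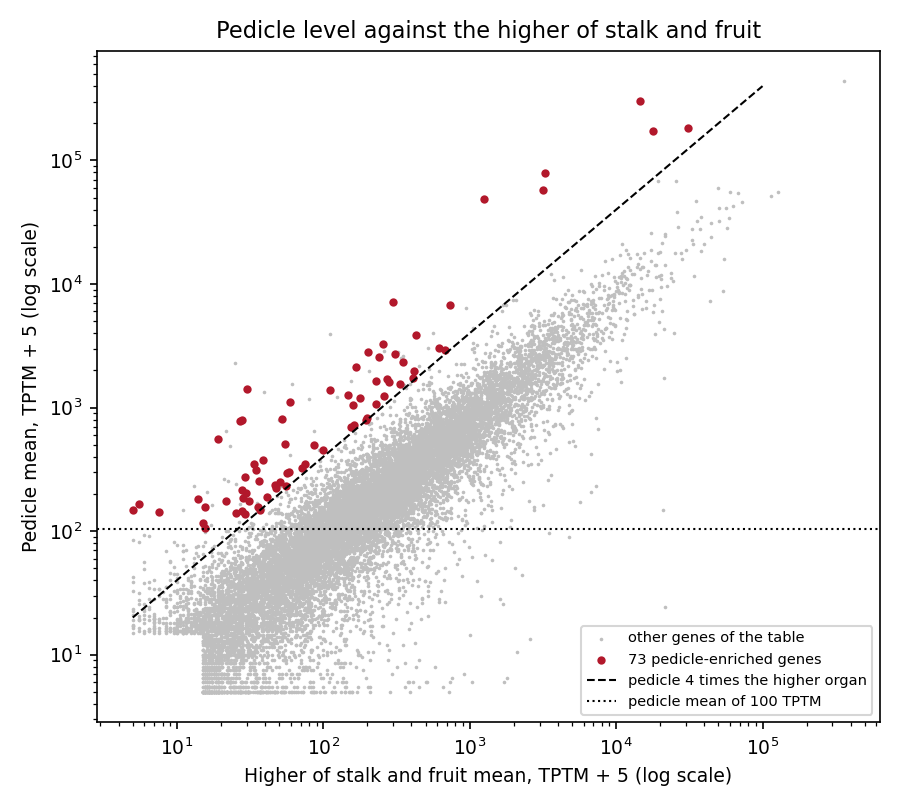
Pedicle mean against the higher of the stalk and fruit means, both as TPTM + 5 on log axes, for the 73 members (red) and the other genes of the table (grey). The dashed line marks the 4-fold limit and the dotted line a pedicle mean of 100 TPTM. Members run along the whole line, and grey genes above both lines failed the stalk to fruit limit.

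The limits of the rule cut through a continuous range. Just inside the 4-fold limit lay Csa4G038690 (fold 4.02; 705 and 866 TPTM in pedicle, 201 and 139 in stalk, 191 and 192 in fruit) and Csa1G574820 (fold 4.04; 183 and 106 TPTM in pedicle, 16 and 42 in stalk, 17 and 47 in fruit). Just outside lay Csa3G733230 (fold 3.99; 6178 and 7345 TPTM in pedicle, 2154 and 1228 in stalk, 639 and 1095 in fruit) and Csa3G172920 (fold 3.97; 2076 and 1029 TPTM in pedicle, 264 and 334 in stalk, 201 and 573 in fruit). A further 41 genes failed only the limit on stalk against fruit and 48 failed only the minimum pedicle level. No gene failed only the demand that both pedicle libraries lie above all others.

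The gap between single libraries varied in size among members. The rule placed both pedicle libraries above all 4 others, so only that size is described. The lower pedicle library plus 5, divided by the highest stalk or fruit library plus 5, had a median of 4.97 and ran from 1.65 to 24.1. It was at least 4 in 50 of the 73 genes and under 2 in 2 of them. All 73 passed the filter of 10 TPTM in at least 2 libraries, which their pedicle level made certain. A limma model over all 6 libraries called 72 of them higher in pedicle than in stalk, where 4.24% of the 15381 tested genes were called in that direction. It called all 73 higher in pedicle than in fruit, where 7.54% were called (Benjamini-Hochberg adjusted p under 0.05 over all tested genes). Nothing is read from these counts, since the same contrasts chose the genes. The exception was Csa6G376250, named for this result after its values were seen, which had 94 and 211 TPTM in pedicle, 32 and 25 TPTM in stalk and 7 and 55 TPTM in fruit (limma adjusted p = 0.0671 against stalk).

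Median log2 differences of the members were 2.94 for pedicle over stalk and 3.30 for pedicle over fruit, where those of all tested genes were -0.07 and -0.21. Scaling with trimmed-mean (TMM) factors moved the median of all genes by 0.06 and 0.17 and gave the members medians of 3.01 and 3.47. Quantile normalisation moved it by 0.10 and 0.21 and gave 2.99 and 3.52.

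A choice made in some libraries can be read in others. The rule was applied to the replicate 1 library of each organ alone, where it took 89 genes, and the fold was read in the replicate 2 libraries. There 43 of the 89 genes, 48.3%, were again at least 4 times both other organs, as were 1.26% of all tested genes. Pedicle was the highest organ in 79 of the 89, or 88.8%, and in 30.9% of all tested genes. With the roles exchanged, 94 genes were taken and 55 of them, 58.5%, passed 4-fold in the replicate 1 libraries, against 1.45% of all tested genes. Pedicle was highest in 91 of the 94, or 96.8%, and in 33.3% of all tested genes. The shares over all tested genes were taken without the pedicle minimum or the stalk to fruit limit. They are thus not matched to the chosen genes.

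The fold shrank between the libraries that chose and those that were read. Its median was 6.10 in the replicate 1 libraries that chose the genes and 3.89 in the replicate 2 libraries, and in the other direction 7.31 and 5.48. Of the chosen genes, 43 and 52 belonged to the 73. The shares past 4-fold are thus those of the genes each choice took, and not of the 73 as a set. Replicate numbers only name the libraries here, and the libraries of an organ may share plants or handling that the labels do not record.

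Stalk and fruit were held within 2-fold of each other by the rule, and the order of their means was divided. Stalk had the higher mean in 40 members, fruit in 32, and 1 had equal means, where stalk was higher in 6224 and fruit in 9052 of all tested genes. The libraries of stalk and fruit did not overlap in 25 of the 73 genes, 20 with stalk higher and 5 with fruit higher, where 54.4% of all tested genes did not overlap, 21.4% with stalk higher and 33.0% with fruit higher. limma called none of them (0 of 73) between stalk and fruit, where 2.95% of tested genes were called; at an unadjusted limma p under 0.05, 10 members (13.7%) and 19.2% of tested genes passed. These counts follow in part from the 2-fold limit and are not read further.

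The rule set no limit on how far apart the 2 libraries of an organ lay. It did use their values, through the organ means and the demand that both pedicle libraries lie above all stalk and fruit libraries. Agreement between libraries is thus not independent of the choice of members. The pedicle libraries were at least 2-fold apart in 8 members, 11.0%, and in 8.20% of all tested genes with a pedicle mean of 100 TPTM or more.

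Fruit was the least even organ over these genes. The fruit libraries were at least 2-fold apart in 27 of the 73 genes, 37.0%, against 11.2% of all tested genes. Among genes with a fruit mean of 100 TPTM or more, the shares were 46.7% (14 of 30 members) and 5.61%. In stalk they were 12.3% of members (9 genes) and 2.77% of all tested genes, and at a stalk mean of 100 TPTM or more 18.2% (6 of 33 members) and 1.37%. Genes of 1 library move together, so these shares describe 2 libraries per organ and carry no test. The same stalk and fruit values took part in choosing the members, and whether that changed the members' shares was not tested.

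The fruit difference ran in both directions. Replicate 1 was at least 2-fold higher in 14 members and replicate 2 in 13, where the counts over all 15381 tested genes were 625 and 1090. All 6 of the most abundant members were higher in fruit replicate 1, 4 of them at least 2-fold, and 5 of the 6 were higher in stalk replicate 1. Their pedicle libraries were divided, with replicate 1 higher in 3 of 6 and none 2-fold apart. Over all tested genes, replicate 1 was the higher library in 40.7% for fruit, 56.8% for stalk and 44.9% for pedicle.

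Other members leaned the opposite way, and the 3 described next were chosen after their values were seen, as the most uneven in fruit. Csa6G008840 had 3219 and 1870 TPTM in pedicle, 125 and 299 TPTM in stalk and 24 and 449 TPTM in fruit, so the higher fruit library was 18.7 times the lower one. Csa7G072770 had 2119 and 2556 TPTM in pedicle, 373 and 315 TPTM in stalk and 35 and 448 TPTM in fruit, a 12.8-fold gap in fruit. Csa5G198120 had 1802 and 1621 TPTM in pedicle, 310 and 226 TPTM in stalk and 31 and 293 TPTM in fruit, a 9.45-fold gap in fruit. In these 3 genes fruit replicate 1 lay far below both stalk libraries, so their fruit means rest on 1 library. Fruit replicate 2 lay near the stalk libraries in Csa7G072770 and Csa5G198120. In Csa6G008840 it stood at 449 TPTM, above stalk libraries that were themselves uneven at 125 and 299 TPTM.

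**Figure D4:**
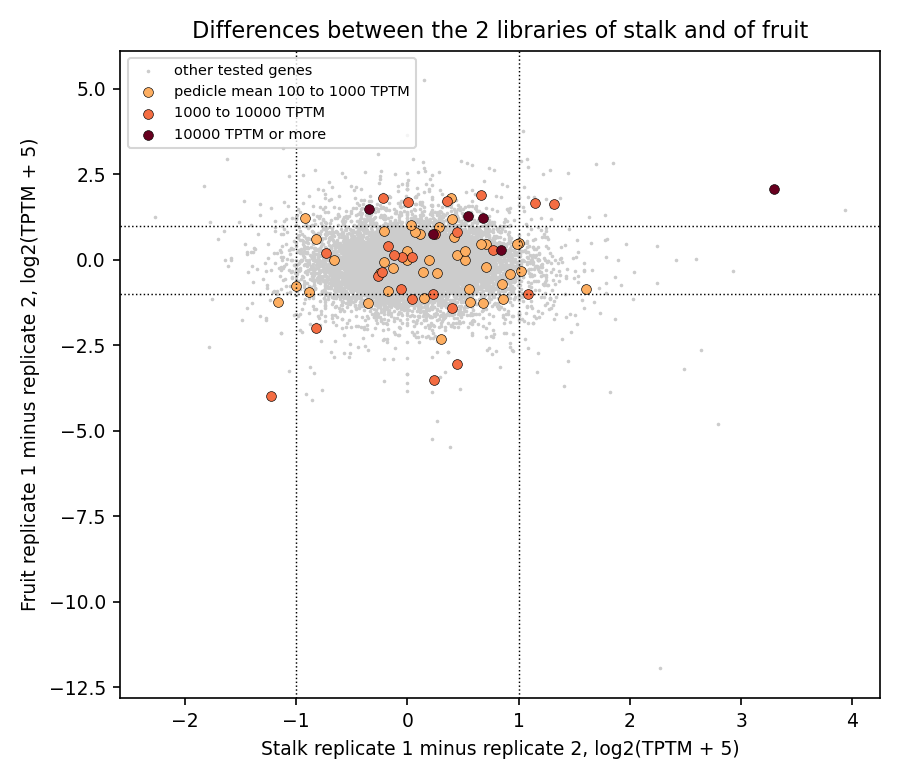
Difference between the 2 libraries of stalk (horizontal) and of fruit (vertical) in log2(TPTM + 5), for the 73 members coloured by pedicle mean and the other tested genes (grey). Dotted lines mark 2-fold. The 6 members of 10000 TPTM or more all lie above 0 in fruit, and Csa6G008840, Csa7G072770 and Csa5G198120 lie lowest among the members.

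The locus identifiers of this annotation name a chromosome by the digit after Csa, followed by a number that runs along it. Positions themselves are not used here. By this digit, 18 members (24.7%) lay on chromosome 6 and 14 (19.2%) on chromosome 7, which hold 16.7% and 9.81% of the table's genes. Chromosome 3 held 9 members (12.3%) and 21.0% of the table's genes. Each of the other chromosomes held between 6 and 10 members. As a share of the genes listed for a chromosome, members made up 0.908% on chromosome 7, 0.684% on chromosome 6 and 0.272% on chromosome 3. No test was made of these counts.

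Members occurred beside each other in 3 places. Csa7G067340, Csa7G067350 and Csa7G067370 form the longest group, in which Csa7G067350 and Csa7G067370 are the abundant genes given above. Csa7G067340 was far lower, with 167 and 113 TPTM in pedicle, 12 and 25 TPTM in stalk and 29 and 17 TPTM in fruit. Scores within this group were thus far apart, while the direction of the organ difference was set by the rule.

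Csa7G222880, beside Csa7G222870, had 4465 and 3309 TPTM in pedicle, 276 and 322 TPTM in stalk and 662 and 185 TPTM in fruit. Its stalk libraries were close together where those of Csa7G222870 were 10.0-fold apart. In fruit both genes were higher in replicate 1, 4.31-fold in Csa7G222870 and 3.58-fold in Csa7G222880. Csa1G542500, beside Csa1G542510, had 224 and 262 TPTM in pedicle, 42 and 27 TPTM in stalk and 31 and 60 TPTM in fruit. In all, 7 of the 73 genes had another member within 20 identifier numbers (9.59%), as had 0.837% of the genes that are no members. Where adjacent genes are near-identical copies or overlap, the scores do not show how reads matching more than 1 of them were treated. Their values are uncertain to that extent.

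The closest match in pattern was a pair on chromosome 6 whose identifiers lie 500 apart, named after its values were seen. Csa6G082530 had 1905 and 3746 TPTM in pedicle, 172 and 75 TPTM in stalk and 301 and 92 TPTM in fruit. Csa6G083030 had 2440 and 4113 TPTM in pedicle, 247 and 96 TPTM in stalk and 384 and 121 TPTM in fruit. The library that was higher within each organ was the same for both genes. The SD of their log2 difference over the 6 libraries was 0.12, the smallest of the 2628 pairs of members, whose median was 0.88. For the adjacent Csa7G067350 and Csa7G067370 it was 0.38, and for Csa7G222870 and Csa7G222880 1.83. The identifiers alone do not tell whether the first pair are copies that match the same reads.

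Genes beside members were not chosen by the rule, but the members that define them were chosen in the same 6 libraries. The share of neighbours called is set beside that of all tested genes as a description, and the difference was not tested. Of 129 tested genes within 20 identifier numbers of a member that are no members themselves, 10 were called higher in pedicle than in both stalk and fruit, or 7.75% (limma, Benjamini-Hochberg adjusted p under 0.05 in both comparisons). That held for 2.93% of all tested genes and for 2.48% of those that are no members. Directly adjacent numbers gave 8 of 65 genes, or 12.3%, numbers within 50 gave 5.30% and within 1000 gave 2.88%. Both pedicle libraries lay above all stalk and fruit libraries in 24.6% of the 65 adjacent genes, 19.4% of the 129 and 14.1% of all tested genes that are no members. The count of 10 was 5 without pedicle replicate 1, 6 without fruit replicate 1, 5 without fruit replicate 2 and 2 without either stalk library. Calls among all non-members fell to 1.51%, 1.49%, 1.80% and 0.513% or 0.434% in those fits. Such a comparison is across genes, which are not independent.

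The middle of the neighbours lay near that of the table. Median log2 differences of the 129 genes were -0.02 for pedicle over stalk and -0.23 for pedicle over fruit, close to those of all tested genes. Of the 129, 18 (14.0%) were called lower in pedicle than in fruit and 7 (5.43%) lower than in stalk, where 15.1% and 8.88% of all tested genes were. The 10 genes called higher lay beside 10 different members. With the members beside another member, 16 of the 73 had a member or such a gene within 20 identifier numbers. The same combined count was not made for genes that are no members, so nothing is read from the 16.

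The neighbours named here were chosen after their values were seen, from those 10. Csa5G647490 had 3475 and 5345 TPTM in pedicle, 964 and 1122 TPTM in stalk and 418 and 355 TPTM in fruit (limma adjusted p = 0.000753 against stalk and 1.84e-05 against fruit). The member beside it, Csa5G647500, had 782 and 1593 TPTM in pedicle, 176 and 171 TPTM in stalk and 140 and 131 TPTM in fruit. Both genes had the higher score in pedicle replicate 2 and close stalk libraries.

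Csa4G050270 had 202 and 300 TPTM in pedicle, 24 and 11 TPTM in stalk and 3 and 1 TPTM in fruit (limma adjusted p = 0.00106 against stalk and 6.94e-05 against fruit). The member Csa4G050280 had 269 and 324 TPTM in pedicle, 46 and 60 TPTM in stalk and 14 and 40 TPTM in fruit. Here the neighbour was lower in fruit than its member and fell outside the stalk to fruit limit.

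Csa6G520480 had 30 and 16 TPTM in pedicle, was listed at 0 in both stalk libraries and had 3 and 0 TPTM in fruit, beside the member Csa6G520490. Csa6G483240 had 45 and 29 TPTM in pedicle, was listed at 0 in both stalk libraries and had 10 and 0 TPTM in fruit, beside Csa6G483230. In both places the member and its neighbour were listed at 0 in stalk, and whether such pairs are separate transcripts or parts of 1 gene model cannot be told from the table. Csa6G008830, beside Csa6G008840, had 71 and 49 TPTM in pedicle, 5 and 6 TPTM in stalk and 6 and 14 TPTM in fruit. Csa7G067390 had 14 and 14 TPTM in pedicle and was listed at 0 in stalk and fruit. The member nearest to it, Csa7G067370, had 180033 and 163685 TPTM in pedicle. Csa6G367090, next to the member Csa6G367080, had 5605 and 3328 TPTM in pedicle, 1532 and 2170 TPTM in stalk and 6 and 4 TPTM in fruit. The member itself had 348 and 235 TPTM in pedicle, 80 and 23 TPTM in stalk and 28 and 55 TPTM in fruit. The neighbour was thus above the member in pedicle and stalk and below it in fruit.

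**Figure D5:**
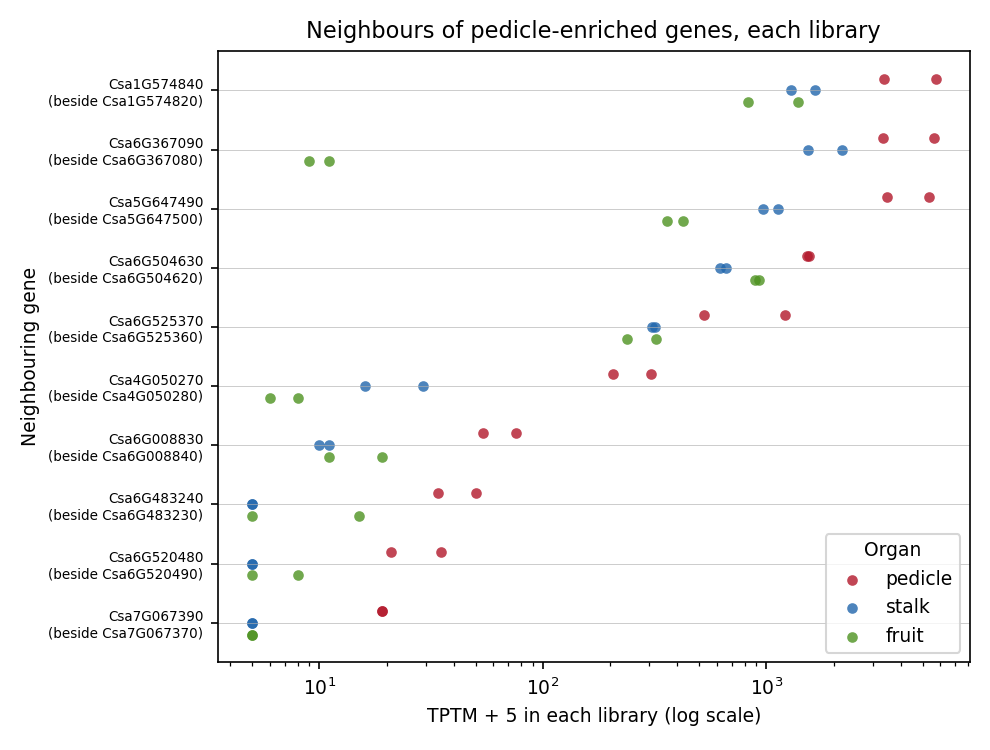
TPTM + 5 in each library (log axis) for the 10 genes that lie within 20 identifier numbers of a member and were called higher in pedicle (red) than in both stalk (blue) and fruit (green). Each row names the gene and the nearest member, and the organs are offset vertically. In every row both red points lie to the right of all others, and fruit lies far left of stalk in Csa6G367090.

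By the difference in log2(TPTM + 5), the 2 members with the least even pedicle libraries were of low level. Csa6G520490, at 219 and 65 TPTM, differed by 1.68 between them on that scale. Csa1G575190, which differed by 1.51, had 110 and 323 TPTM in pedicle, 44 and 25 TPTM in stalk and 50 and 35 TPTM in fruit. Its fold of 4.66, or 2.22 on the log2 scale, was 1.28 on that scale without pedicle replicate 2, below the limit of the rule.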

How the data were processed

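The authors deposited 1 table of whole-number scores (TPTM) per gene and library. The submitters' processing notes list TopHat and HTSeq without versions; genome build, annotation and read depth are not given in the sources used. Every gene had a mean of at least 10 TPTM in its highest organ. No gene length correction is recorded, so levels of different genes are compared by score and not per length.

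The members, lists and comparisons were chosen with earlier results of these data known. The scale was log2(TPTM + 5). For 15381 genes that reached 10 TPTM in 2 or more libraries (339 left out), limma 3.58.1 in R 4.3.3 fitted a term per organ to all 6 libraries (empirical Bayes with an intensity trend, 3 residual and 7.76 prior degrees of freedom), after tests on simulated data. The p-values weigh an organ difference against the spread between libraries of an organ, part of which may be technical. Descriptions used Python 3.11.15 with pandas 2.3.3. Members named in the text are the 6 of highest pedicle mean, the 6 of largest fold, those nearest the fold limit, the 2 with the least even pedicle libraries, those at 0 outside pedicle and those in neighbouring groups. Others were named after their values were seen, which the text says where they first appear, or to be set beside a neighbour. Alternatives changed the rule's limits, the added constant, scaling, filter, model and libraries.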

Additional observations from a re-analysis of the deposited data

How the results depend on the processing

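The number of members, 73, was 122 with a fold limit of 3, 43 with a limit of 6 and 114 with no limit on stalk against fruit. It stayed within 1.5 times under the other limits, constants and scalings. Leaving out 1 library gave 64 to 93 members, which shared 50 to 65 genes with the 73, the fewest without fruit replicate 2. Rescaling without the 6 most abundant members, chosen after seeing the data, gave 84, of which 72 were shared. Genes called between pedicle and stalk numbered 2018, and 482 to 2610 with 1 library left out. Those between pedicle and fruit numbered 3474, 2294 with only these organs fitted, and 1793 to 3685 with 1 library left out. Members called higher than stalk numbered 48 to 73 with 1 library left out, and higher than fruit 68 to 71. The 10 neighbouring genes called higher in pedicle numbered 2 to 7 with 1 library left out. With the replicate block there were 1778 genes for pedicle against stalk and 3105 for pedicle against fruit, with 73 members called in each and 9 neighbours. Differences between replicates 1 and 2 correlated across all tested genes at -0.117 between pedicle and stalk, -0.049 between pedicle and fruit and 0.010 between stalk and fruit, so the numbers were not taken to pair libraries. Crossing the stalk numbers, added after seeing the data, gave 2064 and 3513 genes. For 19 named genes, the fold moved by less than the spread between libraries in 175 of 190 alternatives. It did not reverse in any. For members the rule had fixed this direction under a changed constant or with 1 library left out, so nothing is read from it. With 1 library left out, the remaining one of that organ borrows the other organs' spread. The depth behind a score is unknown, which limits values near 0.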
